A study of Mus musculus with 15 samples.

Results

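The comparison of TAF-tib42 with TAF-tib6 sets 2 sources of mouse fibroblasts against each other, each measured on 3 arrays. It rests on the 6 arrays whose titles carry these names, of 15 arrays in the series, and it covers every gene tested. The name TAF probably stands for tumour-associated fibroblast, since the series' title ties fibroblasts to tumours that do not respond to treatment against VEGF, the main growth factor of blood vessels. The labels call TAF-tib42 resistant and TAF-tib6 sensitive. The other sources, drawn on where they help to place a level, are TAF-tib48 and TAF-el4 (both resistant) and NSF (sensitive), with 3 arrays each. Per the labels, the red dye (Cy5) carried the fibroblast RNA and the green dye (Cy3) a commercial reference RNA pooled from mouse cells, which every array of every source shares. A level is given as the log2 ratio of the fibroblast RNA to that reference, so 0 means equal to the reference, and a difference between sources is a log2 fold change in which 1 stands for a doubling. The strain, age and sex of the animals, the tumour, the culture and passage of the cells, and whether a source was 1 clone, 1 animal or a pool are not given in the sources used here. Each response is represented by a single source in this comparison, so a difference belongs to TAF-tib42 and TAF-tib6 and cannot be told apart from other ways in which these cells differ.

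Fibroblasts make the collagens and other proteins of connective tissue and secrete chemokines and growth factors that act on vessels, immune cells and tumour cells. Like most cells they answer interferon, a signal of viral infection, through receptors and JAK kinases that activate transcription factors, which bind promoters of interferon-stimulated genes. Their growth is held back by inhibitors of cyclin-dependent kinases, of which the neighbouring Cdkn2a and Cdkn2b genes are known for switching on as cultured cells age and for being lost when cells become immortal.

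Of 31206 genes tested, 7759 (24.9%) were called different at an adjusted p under 0.05 (limma, Benjamini-Hochberg over all genes), 3667 of them higher (11.8%) and 4092 lower (13.1%) in TAF-tib42. On the Cy5 signal alone, without the ratio to the reference, 5617 were higher and 4212 lower. Most of these differences were small: 83 genes (0.266%) were called and at least 2-fold higher, and 179 (0.574%) called and at least 2-fold lower. The median absolute difference over all genes was 0.0756. Across genes, the correlation between a TAF-tib42 and a TAF-tib6 array was 0.8675 to 0.8789, below the 0.9756 to 0.9826 seen between arrays of the same source. The typical gene varied between replicate arrays with an SD of 0.0559 in TAF-tib42 and 0.0531 in TAF-tib6 (medians). All 3 TAF-tib42 arrays lay above all 3 TAF-tib6 arrays for 5865 of 30908 genes with 6 values (19%), and below them for 5888 (19.1%). Whether replicate arrays stand for separate cultures or animals is not labelled, and the p-values therefore measure only array-to-array spread, which could be technical. Per the file headers each array was a slide of its own, and the slide numbers form 3 consecutive runs. TAF-el4 and TAF-tib48 each have arrays in more than 1 run, so the pooled spread includes any difference between those runs. All TAF-tib42 arrays lie in 1 run and all TAF-tib6 arrays in another, so that within these 6 arrays run and source cannot be told apart. A fit with the run as a block rests for this difference on TAF-tib48 alone, which has 1 array (replicate 1) in the run of TAF-tib42 and 2 in the run of TAF-tib6; it called 3036 genes (9.73%), 1421 higher (4.55%) and 1615 lower (5.18%). Of the 262 genes called and at least 2-fold apart, 257 kept their call in that fit, whereas many small differences lost it. Values from the block fit are given below beside the calls and counts that it changed most. Each count of list members called is to be read against the share over all genes. That share was 11.8% higher and 13.1% lower, or 4.55% and 5.18% in the block fit.

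The source markers were those of fibroblasts. The Cy5 signal of Col1a1, the main chain of type I collagen, was 41076 to 48986 in TAF-tib42 and 43327 to 47724 in TAF-tib6, and that of the intermediate filament gene Vim was 41603 to 46580 in TAF-tib42 and 41930 to 45053 in TAF-tib6. Neither had a call, although with the slide run as a block Vim was higher by 0.65 (adjusted p = 0.0239). Fap, a surface protease often used to mark activated fibroblasts, was close to the floor of the scale, which the background correction sets at 50, with 71 to 78 in TAF-tib42 and 72.2 to 73.5 in TAF-tib6. Defining genes of other cell types were also low, with Ptprc of leukocytes at 59.7 to 74.4 in TAF-tib42 and 65.2 to 70.9 in TAF-tib6, and Epcam of epithelium at 101 to 111 in TAF-tib42 and 112 to 124 in TAF-tib6. The 14 fibroblast markers as a whole split into 3 higher, 4 lower and 7 without a call. With the slide run as a block 2 were higher and 2 lower (all genes 11.8% and 13.1%, or 4.55% and 5.18% with the block).

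**Figure D1:**
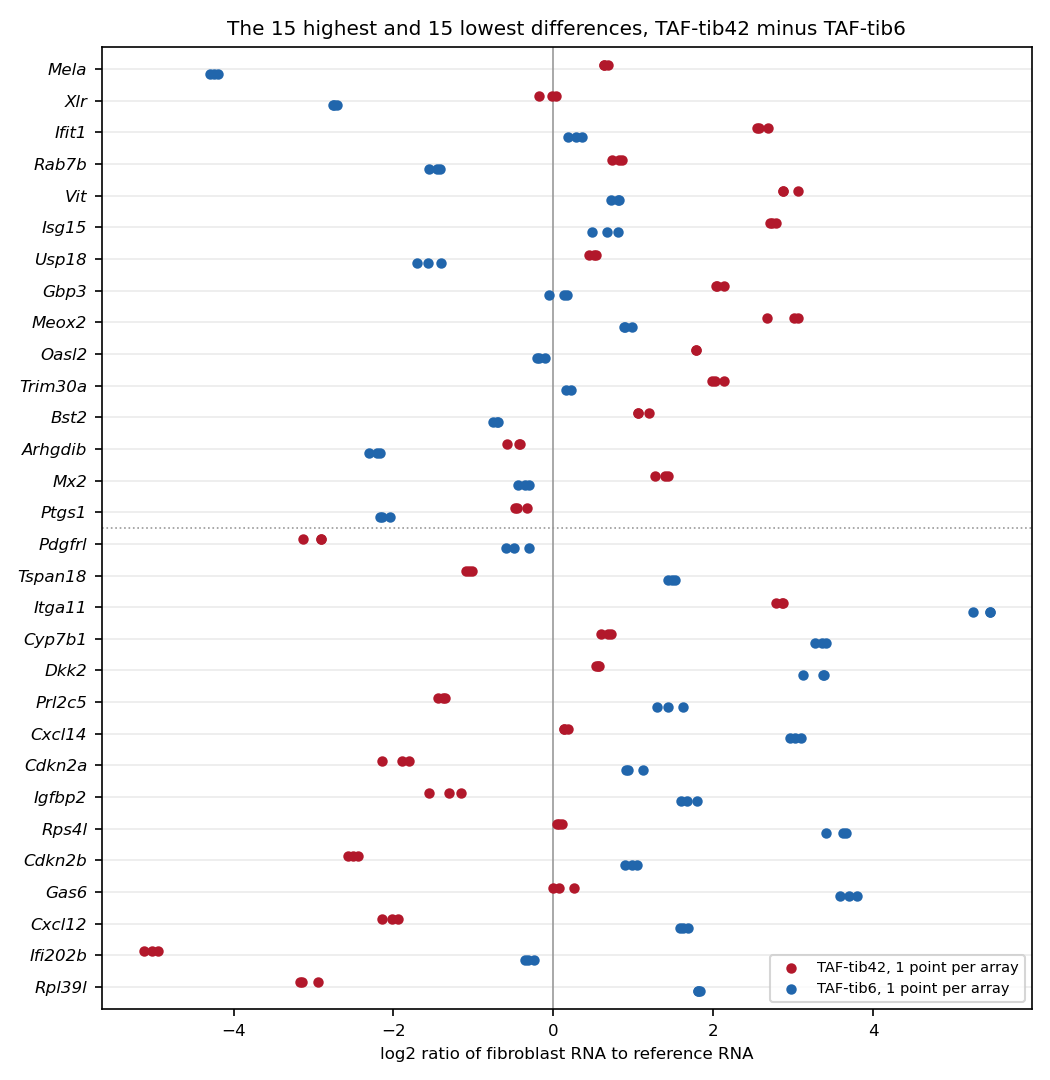
Log2 ratio to the reference RNA (x axis) on each of the 3 TAF-tib42 arrays and 3 TAF-tib6 arrays for the 15 highest and, below the dotted line, the 15 lowest differences among named genes whose groups do not overlap; 1 point is 1 array. Mela at the top and Rpl39l at the bottom are each about 4.90 apart, and the 3 arrays of a source lie close together for every gene shown. Oasl2 lacks 1 TAF-tib42 array and Trim30a 1 TAF-tib6 array.

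Interferon-stimulated genes were the group that most stood out among those higher in TAF-tib42. Of 48 tested, 34 were higher, 2 were lower and 12 had no call, with a median difference of 0.79 against a median of -0.00 over all genes, of which 11.8% were called higher. Of the 34, 18 were at least 2-fold higher. The promoters of 4 of the highest are shown first because they carry the letters of the interferon-stimulated response element, a pair of GAAA repeats spaced by any 2 bases. They were picked for these letters and do not stand for all of the highest. The promoter of Oasl2 (difference 1.96) had 0 matches and is not shown. Gbp3 has another start in RefSeq (chr3:142560106-142560405), also with 0 matches, and only the start with matches is shown. Trim30a (difference 1.86, above Bst2 at 1.82) had 1 match at each listed start and is not shown. Usp18 (2.06) had no promoter entry. The sequences come from RefSeq (assembly GRCm38.p6), run 5′ to 3′ on the gene's strand from 250 bases before to 50 bases after the gene's start, and have in capitals each match to GAAA, any 2 bases and GAAA, or to its reverse complement, TTTC, any 2 bases and TTTC, where overlapping matches run together.
Ifit1, chr19:34640639-34640938, plus strand: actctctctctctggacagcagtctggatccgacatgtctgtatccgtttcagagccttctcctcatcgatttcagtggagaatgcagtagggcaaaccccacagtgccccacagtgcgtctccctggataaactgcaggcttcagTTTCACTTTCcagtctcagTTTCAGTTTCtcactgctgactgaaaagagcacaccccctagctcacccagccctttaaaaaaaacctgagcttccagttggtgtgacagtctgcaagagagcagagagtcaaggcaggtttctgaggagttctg
Isg15, chr4:156200769-156201068, minus strand: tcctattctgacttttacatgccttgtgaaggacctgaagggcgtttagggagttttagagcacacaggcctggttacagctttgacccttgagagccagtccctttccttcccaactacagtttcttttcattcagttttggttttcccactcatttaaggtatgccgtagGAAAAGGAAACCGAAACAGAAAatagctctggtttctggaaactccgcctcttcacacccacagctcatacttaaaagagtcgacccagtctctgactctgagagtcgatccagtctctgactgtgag
Gbp3, chr3:142559794-142560093, plus strand: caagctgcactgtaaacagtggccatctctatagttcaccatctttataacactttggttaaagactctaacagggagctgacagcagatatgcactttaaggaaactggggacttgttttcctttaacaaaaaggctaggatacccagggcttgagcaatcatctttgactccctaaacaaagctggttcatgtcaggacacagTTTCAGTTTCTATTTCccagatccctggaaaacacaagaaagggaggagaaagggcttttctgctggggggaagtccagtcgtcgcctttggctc
Bst2, chr8:71537423-71537722, minus strand: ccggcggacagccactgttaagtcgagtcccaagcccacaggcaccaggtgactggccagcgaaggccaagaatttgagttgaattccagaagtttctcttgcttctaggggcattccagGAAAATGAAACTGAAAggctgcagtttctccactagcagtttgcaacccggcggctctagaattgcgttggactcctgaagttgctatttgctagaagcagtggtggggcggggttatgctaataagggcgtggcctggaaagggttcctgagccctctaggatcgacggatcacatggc
Matches to this motif on either strand lay in the promoters of 12 of the 23 interferon-stimulated genes that were higher and had a promoter entry (52.2%). They lay in 7 of the 12 that were not called higher and had an entry (58.3%), and in 535 of 13122 tested genes with an entry (4.08%).

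Ifit1, whose protein binds viral RNA lacking the host cap, had log2 ratios of 2.69, 2.55 and 2.57 in TAF-tib42, against 0.29, 0.19 and 0.36 in TAF-tib6. It was 5.0-fold higher in TAF-tib42 (difference 2.32, SE 0.171, adjusted p = 8.5e-09), and the lowest TAF-tib42 array lay more than 2 units above the highest TAF-tib6 array. Isg15, a ubiquitin-like protein attached to other proteins after interferon, had 2.79, 2.73 and 2.71 in TAF-tib42, against 0.81, 0.48 and 0.67 in TAF-tib6, a difference of 2.09 (SE 0.17, adjusted p = 3.1e-08). Usp18, the protease that removes Isg15 and dampens the interferon receptor, had 0.54, 0.45 and 0.51 in TAF-tib42, against -1.57, -1.71 and -1.40 in TAF-tib6. Both the modifier and the enzyme that removes it thus rose, by 2.09 and 2.06. Gbp3, a guanylate-binding GTPase that acts on intracellular pathogens, had 2.05, 2.14 and 2.03 in TAF-tib42 and 0.13, -0.06 and 0.17 in TAF-tib6. Bst2, which tethers budding viruses to the cell surface, had 1.2, 1.06 and 1.06 in TAF-tib42 and -0.69, -0.76 and -0.70 in TAF-tib6. Gbp3 was 3.99-fold and Bst2 3.53-fold higher in TAF-tib42. Oasl2 rose by 1.96 over 2 TAF-tib42 arrays and 3 TAF-tib6 arrays, Trim30a by 1.86 over 3 TAF-tib42 arrays and 2 TAF-tib6 arrays, and Mx2, a GTPase that blocks viruses, by 1.73.

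The higher members came from several steps of the response. Of the transcription factors, Stat2 rose by 0.81 (SE 0.0934), Irf9 by 0.80 (SE 0.0831, with 0.09 by another probe) and Irf7 by 0.78 (SE 0.0743). Of the cytoplasmic sensors of viral RNA, Ifih1 rose by 1.38 (SE 0.0848, with 0.52 by another probe), Dhx58 by 1.05 (SE 0.0962) and Ddx58 by 0.96 (SE 0.0779, with 0.29 and 0.45 by other probes). Of the immunity-related GTPases, which act on the vacuoles of intracellular parasites, Iigp1 rose by 1.39 (SE 0.15), Igtp by 1.23 (SE 0.0866) and Irgm1 by 0.87 (SE 0.0768). The members without a call included Mx1 (0.06), Rsad2 (0.00, with other probes at 0.09 and 0.28), Ifi27 (0.02), Gbp2 (0.01) and Ifitm3 (0.05). The 2 lower members were Ifitm2 (-0.20, SE 0.0618, adjusted p = 0.0232) and Ifitm1 (-0.18, SE 0.0466, adjusted p = 0.0082). These encode membrane proteins that hinder virus entry; Ifitm1 had no call with the slide run as a block (adjusted p = 0.0732) or without replicate 2 of every source (adjusted p = 0.118), and Ifitm2 had none on Cy5 alone, on median-centred ratios or on the scanner's own ratios. Leaving out TAF-tib42 replicate 1 also ended the Ifitm2 call (adjusted p = 0.0956), as did leaving out TAF-tib6 replicate 1 (adjusted p = 0.0509) or replicate 2 (adjusted p = 0.0673).

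Of 22 interferon ligands, receptors and signal carriers, none was called higher and 3 were called lower, with a median of -0.02. This list leaves out Stat2, Irf9 and Irf7, which also carry the signal. They rose and were counted above among the interferon-stimulated genes. Over all genes 11.8% were called higher and 13.1% lower, so the lower count was near that share. With the slide run as a block 1 was called lower, where 5.18% of all genes were. The ligand Ifnb1 differed by 0.13 without a call (SE 0.0562, adjusted p = 0.0961), but was called higher when TAF-tib42 replicate 2 was left out (0.20, adjusted p = 0.0138). No call was made for Ifna4 (-0.05) or the type II ligand Ifng (0.03). The kinase Jak1 fell by 0.44 (SE 0.0531, adjusted p = 5.6e-06) and the receptor chain Ifnar1 by 0.11 (SE 0.0368, adjusted p = 0.0348; adjusted p = 0.26 with the block). The Ifnar1 call also ended without any 1 of the 3 TAF-tib42 arrays, or without TAF-tib6 replicate 1 or 2, at adjusted p = 0.0565 to 0.113. Irf3, the factor that switches on Ifnb1, fell by 0.18 (adjusted p = 0.205 with the block and 0.0637 without replicate 2 of every source), and Irf1 differed by 0.09 (SE 0.0598, adjusted p = 0.329).

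**Figure D2:**
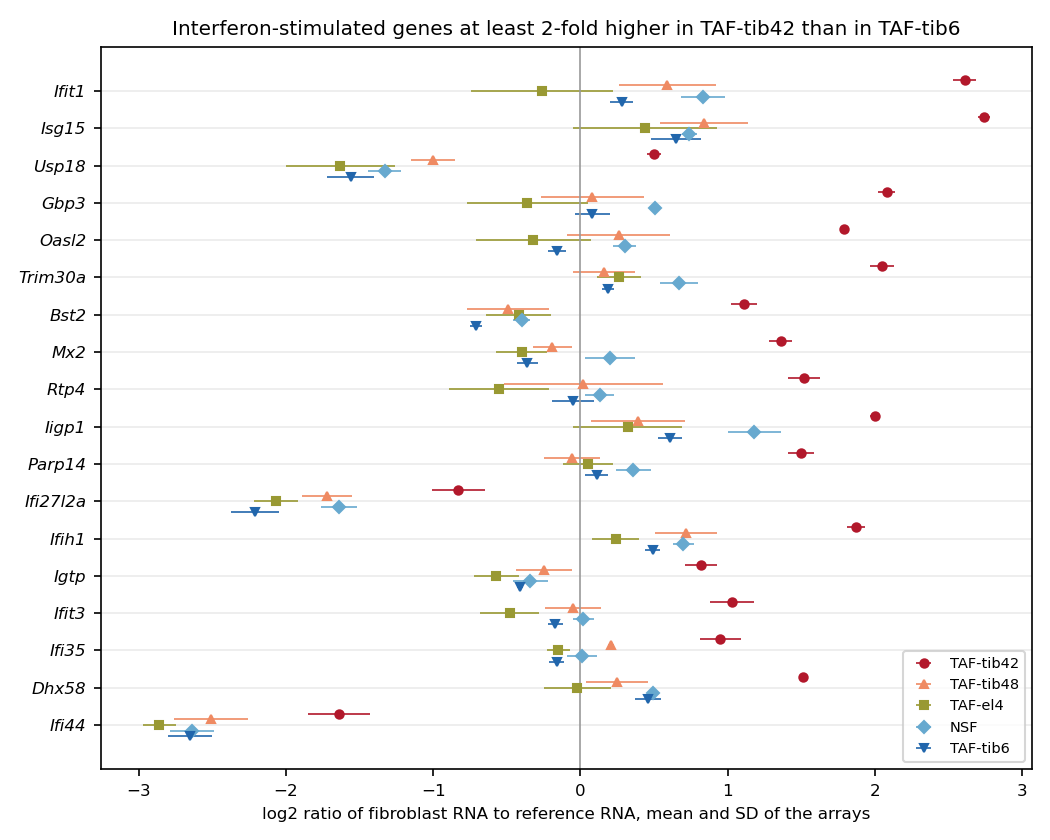
Mean log2 ratio to the reference RNA (x axis, bars are the SD of the arrays, 3 per source except 2 for Oasl2 in TAF-tib42 and Trim30a in TAF-tib6) of the 18 interferon-stimulated genes at least 2-fold higher in TAF-tib42 than in TAF-tib6, in all 5 sources. The TAF-tib42 points lie to the right of the other 4 sources for each of the 18 genes; for Iigp1, TAF-tib42 averaged 2.0 and the next source, NSF, 1.18.

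The level of TAF-tib42 stood apart from the other sources as well. Interferon-stimulated genes were higher in TAF-tib42 than in TAF-tib48 for 35 of 48 (6.62% of all genes), than in TAF-el4 for 37 of 48 (9.67%) and than in NSF for 33 of 48 (10.8%); these comparisons share the TAF-tib42 arrays and are not independent. Ifit1 averaged 2.61 in TAF-tib42, 0.59 in TAF-tib48, -0.26 in TAF-el4, 0.83 in NSF and 0.28 in TAF-tib6. In TAF-tib48 against NSF, which uses none of these 6 arrays, 3 of the 48 were higher (11.7% of all genes) and 12 lower (14.5%). In TAF-el4 against NSF, which uses none of them either, 1 was higher (8.78%) and 22 lower (8.57%).

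Genes that load peptides on MHC class I, which interferon also raises, were higher in 12 of 19 and lower in 2, with a median of 0.32. With the slide run as a block 11 were higher and none was lower (all genes 11.8% and 13.1%, or 4.55% and 5.18% with the block). H2-D1, a classical class I heavy chain, had 0.21, 0.16 and 0.09 in TAF-tib42, against -1.5, -1.47 and -1.53 in TAF-tib6, a difference of 1.65 (SE 0.0567, adjusted p = 1.7e-13). The immunoproteasome subunits Psmb9, Psmb8 and Psmb10 rose by 0.66 (SE 0.0583), 0.61 (SE 0.0982) and 0.61 (SE 0.0574), and the peptide transporter chain Tap1 by 0.60 (SE 0.0649). The invariant light chain B2m differed by 0.02 (SE 0.065, adjusted p = 0.892). Class I heavy chains are near-identical genes that probes may not tell apart.

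The p200 family, DNA-binding proteins induced by interferon, split. Ifi202b had -4.94, -5.12 and -5.02 in TAF-tib42, against -0.32, -0.36 and -0.24 in TAF-tib6, and was 26.4-fold lower in TAF-tib42 (difference -4.72, SE 0.089, adjusted p = 6.2e-17). Its level also lay at -5.01 in TAF-el4 and -5.14 in NSF, and at -2.38 in TAF-tib48, so that TAF-tib6 was the source that stood highest. Ifi205 rose by 1.25 (SE 0.0773, with 0.30 by another probe), Ifi203 by 1.07 (SE 0.0914) and Ifi204 by 0.48 (SE 0.078) in TAF-tib42. Aim2, the sensor of DNA in the cytoplasm, and Ifi209 had no call, at -0.05 and 0.14. Ifi202b is known to vary in expression between inbred strains; no label names the strains used.

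The inhibitors of cyclin-dependent kinases had the lowest median difference of the lists, -1.04, over only 7 members. Of these 4 were lower and 1 higher, also with the block (all genes 13.1% and 11.8%, or 5.18% and 4.55% with the block). Cdkn2b, which blocks the kinases that start the cell cycle, had -2.44, -2.57 and -2.51 in TAF-tib42, against 0.90, 0.99 and 1.05 in TAF-tib6, and was 11.2-fold lower (difference -3.49, SE 0.0547, adjusted p = 5.1e-18). Cdkn2a, whose transcripts encode the INK4A kinase inhibitor and the p53 activator ARF, had -1.89, -1.80 and -2.14 in TAF-tib42, against 1.12, 0.94 and 0.91 in TAF-tib6, and was 7.63-fold lower (difference -2.93, SE 0.118, adjusted p = 1.7e-12). No array of TAF-tib42 came within 2 units of an array of TAF-tib6 for either gene. The probe does not say which of the 2 Cdkn2a transcripts changed. Cdkn1c had -0.21, -0.06 and -0.22 in TAF-tib42 and 1.07, 1.11 and 1.08 in TAF-tib6. Cdkn1a, the p53-driven inhibitor, had -0.09, -0.23 and -0.11 in TAF-tib42 and 0.95, 0.94 and 0.80 in TAF-tib6. They fell by 1.25 (SE 0.054) and 1.04 (SE 0.0539), and neither overlapped between the sources. Of the remaining 3 members tested, Cdkn2d rose by 0.59 (SE 0.0584) and Cdkn1b (0.08) and Cdkn2c (0.04) had no call.

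Cdkn2b averaged 0.77 in TAF-tib48, 0.35 in TAF-el4 and 0.73 in NSF, and Cdkn2a -0.27 in TAF-tib48, 0.41 in TAF-el4 and 0.20 in NSF, so that TAF-tib42 was lowest of the 5 sources for both. The same 4 inhibitors that fell against TAF-tib6 had lower means in TAF-tib42 than in every other source. The 2 genes lie next to each other on chromosome 4. Of the genes around them in the RefSeq order, Ifne and Dmrta1 had probes that were not tested, and 2 were tested: Mtap, an enzyme of methionine salvage that sits beside Cdkn2a, averaged -1.15 ± 0.10 in TAF-tib42 and -0.92 ± 0.04 in TAF-tib6 (SD, n = 3 each; limma difference -0.23, SE 0.0591, adjusted p = 0.00804), and Zfp352 differed by -0.08 (SE 0.0379, adjusted p = 0.125). The Mtap call was lost on scaled log ratios and, with limma again, without TAF-tib42 replicate 2 (-0.17, adjusted p = 0.0546). Levels in TAF-tib42 were thus 11.2-fold lower at Cdkn2b, 7.63-fold lower at Cdkn2a and 1.17-fold lower at Mtap. All 3 TAF-tib42 arrays still gave Cdkn2a and Cdkn2b signals that the scanner flagged as well above background, a flag that 91.1% to 94.3% of the probes of these arrays carried.

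**Figure D3:**
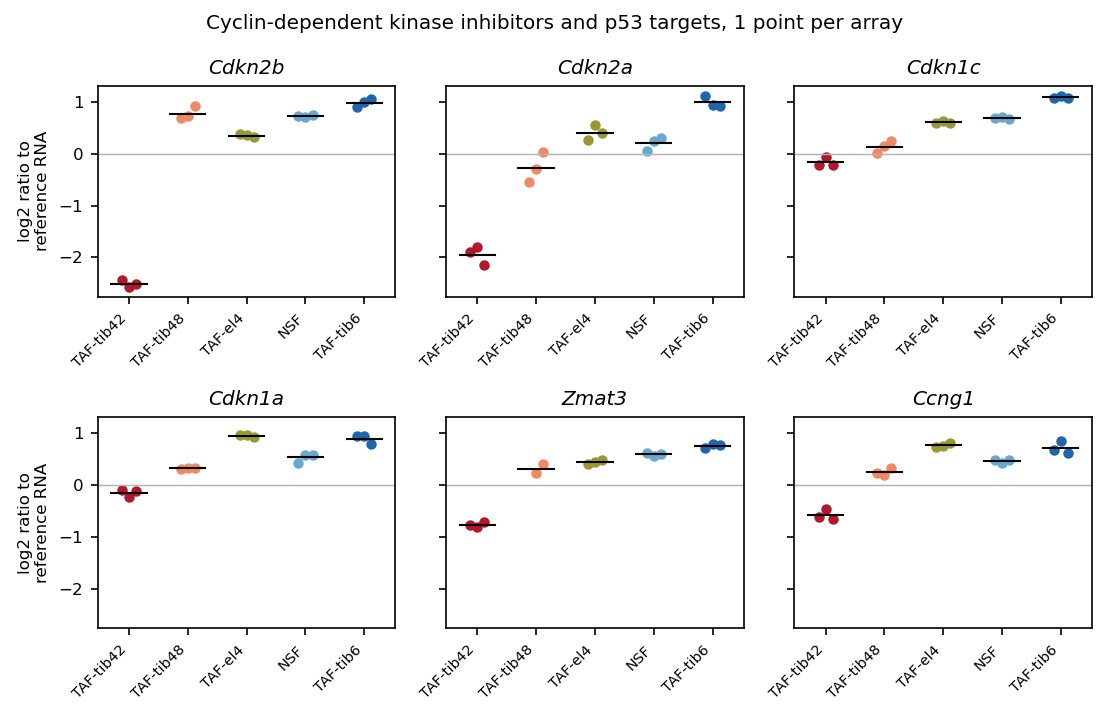
Log2 ratio to the reference RNA (y axis) of 4 kinase inhibitors and 2 p53 targets in each source (x axis); 1 point is 1 array, and lines are means. TAF-tib42 lies below all other sources in every panel, by the widest gap for Cdkn2b, at -2.51 against 0.35 or more elsewhere; Zmat3 has 2 TAF-tib48 arrays.

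Targets of p53, the damage-activated transcription factor, were lower in 14 of 30 and higher in 2, with a median of -0.13. With the slide run as a block 9 were lower and 3 higher (all genes 13.1% and 11.8%, or 5.18% and 4.55% with the block). Zmat3, an RNA-binding p53 target, had -0.76, -0.81 and -0.71 in TAF-tib42, against 0.72, 0.79 and 0.77 in TAF-tib6 (difference -1.52, SE 0.0488, adjusted p = 2.5e-13). Ccng1, a cyclin induced by p53, fell by 1.29 (SE 0.0617), and by 0.43 by another probe. Trp53inp1, a p53 cofactor, fell by 1.17 (SE 0.0748, with -0.60 by another probe), Phlda3 by 0.80 (SE 0.0478), and Pmaip1, a trigger of apoptosis, by 0.60 (SE 0.0482). Mdm2, the ubiquitin ligase that degrades p53, fell by 0.78 (SE 0.0943); its other probe gave -0.08, and Cy5 alone gave no call.

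Cell cycle and mitosis genes were called higher in 26 of 48 and lower in 3, with a median of 0.26. But 2 were higher and 4 lower with the slide run as a block, where the median was 0.20. TAF-tib42 was not the highest source for this list. Its median difference was 0.22 against NSF, -0.02 against TAF-tib48 and -0.36 against TAF-el4. The shares of all genes were 11.8% and 13.1%, or 4.55% and 5.18% with the block. Plk1, a mitotic kinase, averaged -0.29 ± 0.04 in TAF-tib42 and -0.85 ± 0.02 in TAF-tib6 (SD, n = 3 each; limma difference 0.55, adjusted p = 3.2e-04), and had adjusted p = 0.168 in the block fit. Top2a, a DNA topoisomerase of dividing cells, rose by 0.55 (SE 0.0709, with 0.20 by another probe) and Nek2, a centrosome kinase, by 0.68 (SE 0.0849), and both kept their call. Ccnd2, the cyclin that partners the kinases blocked by Cdkn2b, went the other way and fell by 1.64 (SE 0.0539, adjusted p = 9.1e-14), with other probes at -1.38 and -1.26.

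Among secreted signals, the largest losses were in chemokines and growth factor partners. Cxcl12, which draws stem cells and lymphocytes through the receptor Cxcr4, had -1.94, -2.02 and -2.14 in TAF-tib42, against 1.68, 1.59 and 1.62 in TAF-tib6, and was 12.7-fold lower (difference -3.66, SE 0.174, adjusted p = 1.9e-11), with -4.68 by another probe. Cxcl14 had 0.14, 0.14 and 0.18 in TAF-tib42, against 3.02, 3.10 and 2.96 in TAF-tib6 (difference -2.87, SE 0.077). The level of Cxcl12 also lay below the reference in TAF-tib48 (-0.90) and TAF-el4 (-0.34), whereas Cxcl14 was low in TAF-tib48 (0.42) but high in TAF-el4 (3.87). Of 33 chemokines tested, 6 were higher and 6 lower, where 11.8% and 13.1% of all genes were; with the block 3 were higher and 5 lower. Ccl8 fell by 1.08 (SE 0.0946), the eosinophil attractant Ccl11 by 0.95 (SE 0.0687), and the interferon-induced Cxcl10 rose by 0.74 (SE 0.0973).

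Gas6, the ligand of the Axl, Mer and Tyro3 receptors, had 0.00, 0.26 and 0.07 in TAF-tib42, against 3.80, 3.70 and 3.59 in TAF-tib6, and was 12-fold lower (difference -3.59, SE 0.194, adjusted p = 1.2e-10). Igfbp2, which binds insulin-like growth factors outside the cell, had -1.15, -1.31 and -1.55 in TAF-tib42, against 1.60, 1.67 and 1.80 in TAF-tib6, and was 8.14-fold lower (difference -3.03, SE 0.0771). Both were highest in the 2 sensitive sources, with NSF at 3.51 for Gas6 and 2.63 for Igfbp2. Within the insulin-like growth factor list 7 of 17 members were lower and 1 higher. With the block 4 were lower and none higher (all genes 13.1% and 11.8%, or 5.18% and 4.55% with the block). Igf2r, the receptor that clears IGF2, fell by 0.87 (SE 0.0519) and Igf1 itself by 0.65 (SE 0.0471), with -1.65 by another probe.

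Of 7 ligands and receptors of PDGF, which drives growth of fibroblasts and pericytes, 3 were higher and 3 lower. With the block 1 was higher and 2 lower (all genes 11.8% and 13.1%, or 4.55% and 5.18% with the block). Pdgfc had 0.30, 0.24 and 0.30 in TAF-tib42, against -0.82, -0.71 and -0.76 in TAF-tib6, and was 2.06-fold higher (difference 1.04, SE 0.0645, adjusted p = 7.8e-10). Pdgfd fell by 0.42 (SE 0.0548), Pdgfb differed by 0.02, and Pdgfa rose by 0.31 (SE 0.0527) but had adjusted p = 0.165 with the block. Of the receptors, Pdgfra fell by 0.44 (adjusted p = 0.371 with the block) and Pdgfrb rose by 0.30 (adjusted p = 0.424 with the block). Pdgfrl, a receptor-like protein without a kinase, had -2.91, -2.90 and -3.13 in TAF-tib42 and -0.49, -0.31 and -0.59 in TAF-tib6, and fell by 2.51 (SE 0.0934).

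Vegfa, the target of the treatment named in the title, averaged 0.36 ± 0.01 in TAF-tib42 and 0.44 ± 0.03 in TAF-tib6 (SD, n = 3 each) and had no call (limma difference -0.08, SE 0.0478, adjusted p = 0.257). Vegfb (0.12) and Pgf (-0.08) had none either. Vegfd, a ligand of lymphatic and vascular growth, had 0.94, 0.93 and 0.71 in TAF-tib42, against 2.41, 2.31 and 2.36 in TAF-tib6, and fell by 1.5 (SE 0.0953), and Vegfc fell by 0.39 (SE 0.0436). Flt1, the receptor that also circulates as a decoy for VEGF, had -1.07, -1.19 and -1.06 in TAF-tib42, against 0.53, 0.60 and 0.63 in TAF-tib6 (difference -1.70, SE 0.0527, adjusted p = 4.6e-14). Angptl4 fell by 1.35 (SE 0.0792), Angpt2, a ligand that loosens vessels through the receptor Tek, by 1.14 (SE 0.149), and the vasodilator Adm by 0.71 (SE 0.0833). Over the VEGF and angiopoietin families 9 of 23 were lower and 2 higher, and 6 and 2 with the block. The shares of all genes were 13.1% and 11.8%, or 5.18% and 4.55% with the block. The neuropilin Nrp2 gave 0.01, and Kdr, the main VEGF receptor of endothelium, 0.01. In a bulk RNA sample, fewer cells of a type and less RNA per cell cannot be told apart. Endothelial markers gave 1 higher and 3 lower of 12, none with the block, and their summed Cy5 signal was 2001 to 2100 in TAF-tib42 and 2077 to 2142 in TAF-tib6. Pecam1 of endothelium gave 62.4 to 87.3 in TAF-tib42 and 96.9 to 104 in TAF-tib6.

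Of 29 FGF, HGF and EGF family members 5 were lower and 2 higher, or 2 and none with the block. For this and the next 2 lists, the shares of all genes were 13.1% lower and 11.8% higher, or 5.18% and 4.55% with the block. Hgf, a motility factor for epithelium and endothelium, fell by 1.25 (SE 0.107), with -0.70 by another probe. Among interleukins and their receptors 8 of 31 were lower and 6 higher, or 4 and 3 with the block. Il1rn, the natural antagonist of interleukin 1, fell by 1.67 (SE 0.048, with -0.03 by another probe), the shared receptor chain Il6st by 1.37 (SE 0.14) and Il1r1 by 0.98 (SE 0.087), whereas the receptor Il11ra1 rose by 1.29 (SE 0.0726). Of 27 complement genes 6 were lower and 2 higher, or 3 and 1 with the block, and C3, the central component, fell by 1.90 (SE 0.22), or by 1.19 with the block (adjusted p = 0.0489). Another C3 probe gave 0.07.

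Of 41 Wnt ligands, receptors and antagonists, 14 were lower, 2 higher and 25 without a call (median -0.01). With the block 9 were lower and 1 higher (all genes 13.1% and 11.8%, or 5.18% and 4.55% with the block). Dkk2, an inhibitor of the co-receptor, had 0.56, 0.57 and 0.54 in TAF-tib42, against 3.12, 3.39 and 3.37 in TAF-tib6 (difference -2.74, SE 0.0758), and the level of TAF-tib6 was the highest of the 5 sources, with 1.22 in TAF-tib48, 1.40 in TAF-el4 and 1.48 in NSF. Sfrp1 fell by 0.99 (SE 0.116), Frzb by 0.76 (SE 0.0676) and Rspo2, which strengthens Wnt signals, by 0.97 (SE 0.0585).

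Bone morphogenetic protein signals are read out by the Id genes, inhibitors of differentiation. Id1 had -2.88, -2.81 and -2.87 in TAF-tib42, against -0.47, -0.47 and -0.46 in TAF-tib6, and was 5.23-fold lower (difference -2.39, SE 0.0833, adjusted p = 2.2e-13), with -2.36 by another probe. Id3 fell by 1.26 (SE 0.0628) and Id2 by 0.72 (SE 0.0784), the last without a call on scaled log ratios. Over the 35 genes of that list 10 were lower and 2 higher, or 8 and 1 with the block. For this and the next list, the shares of all genes were 13.1% lower and 11.8% higher, or 5.18% and 4.55% with the block. Of 21 TGF-beta ligands, receptors and binding proteins 10 were lower and 3 higher, or 6 and 0 with the block. Ltbp2, a latent binding protein, fell by 1.49 (SE 0.0861), the receptor Tgfbr2 by 1.19 (SE 0.104), with -0.09 by another probe, and the TGF-beta-induced matrix protein Tgfbi by 0.91 (SE 0.105).

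Matrix genes were lower more often than higher. Of 46 matrix glycoproteins and elastic fibre genes 26 were lower and 5 higher (median -0.27), and 16 and 2 with the block. The shares of all genes were 13.1% and 11.8%, or 5.18% and 4.55% with the block. Mgp, an inhibitor of calcification, had -0.90, -0.94 and -0.91 in TAF-tib42, against 1.46, 1.64 and 1.35 in TAF-tib6 (difference -2.40, SE 0.103, adjusted p = 4.3e-12). Ccn3 fell by 1.91 (SE 0.145), the fibrillin Fbn2 by 1.5 (SE 0.0547), the de-adhesive Tnc by 1.34 (SE 0.0715, with -0.43 by another probe), the microfibril protein Mfap2 by 1.28 (SE 0.068, with -0.05 by another probe) and Postn by 1.26 (SE 0.0744). Postn was still far above the reference in both sources, at 3.85, 3.89 and 3.75 in TAF-tib42 and 5.20, 5.05 and 5.03 in TAF-tib6. Fn1, the main fibronectin gene, fell by 0.65 but had adjusted p = 0.166 with the block. The exception at the top was Vit, a matrix protein with von Willebrand domains, with 2.87, 3.06 and 2.88 in TAF-tib42 and 0.72, 0.82 and 0.81 in TAF-tib6, a rise of 2.16 (SE 0.0571, adjusted p = 5.1e-15).

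The chains of type I and III collagen had no call, with Col1a1 at -0.12 (SE 0.0982), Col1a2 at -0.10 (SE 0.113) and Col3a1 at -0.03 (SE 0.105). Among the 28 collagens 11 were lower and 3 higher, or 9 and 1 with the block (all genes 13.1% and 11.8%, or 5.18% and 4.55%). Col8a1, a short-chain collagen of vessel walls, had 0.10, -0.05 and -0.09 in TAF-tib42, against 2.18, 2.17 and 2.09 in TAF-tib6 (difference -2.16, SE 0.0742), and its partner Col8a2 fell by 1.25 (SE 0.0755). The fibril-associated Col14a1 fell by 1.61 (SE 0.149, with 0.03 by another probe) and the beaded-filament chain Col6a1 by 1.36 (SE 0.0845). Of 24 proteoglycans 10 were lower and 5 higher, or 6 and 3 with the block. The leucine-rich Aspn, Ogn, Dcn and Fmod, which control collagen fibrils, fell by 1.87 (SE 0.0636), 1.71 (SE 0.142), 1.51 (SE 0.147) and 1.31 (SE 0.101), whereas the surface proteoglycan Cspg4 rose by 0.93 (SE 0.064).

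Itga11, the integrin chain by which fibroblasts grip collagen, had 2.88, 2.78 and 2.86 in TAF-tib42, against 5.46, 5.46 and 5.25 in TAF-tib6 (difference -2.55, SE 0.17). Among 15 integrins 4 were lower and 2 higher, or 1 and none with the block (all genes 13.1% and 11.8%, or 5.18% and 4.55%). None of the 32 matrix metalloproteinases, inhibitors and ADAMTS genes changed 2-fold, and 10 were lower and 3 higher, or 5 and 0 with the block. Of 28 contractile genes 7 were lower and 3 higher, or 5 and 1 with the block, with Cnn1, a calponin of smooth muscle, at -1.24 (SE 0.0852) and Fhl1, a LIM protein of muscle, at 1.24 (SE 0.0835).

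**Figure D4:**
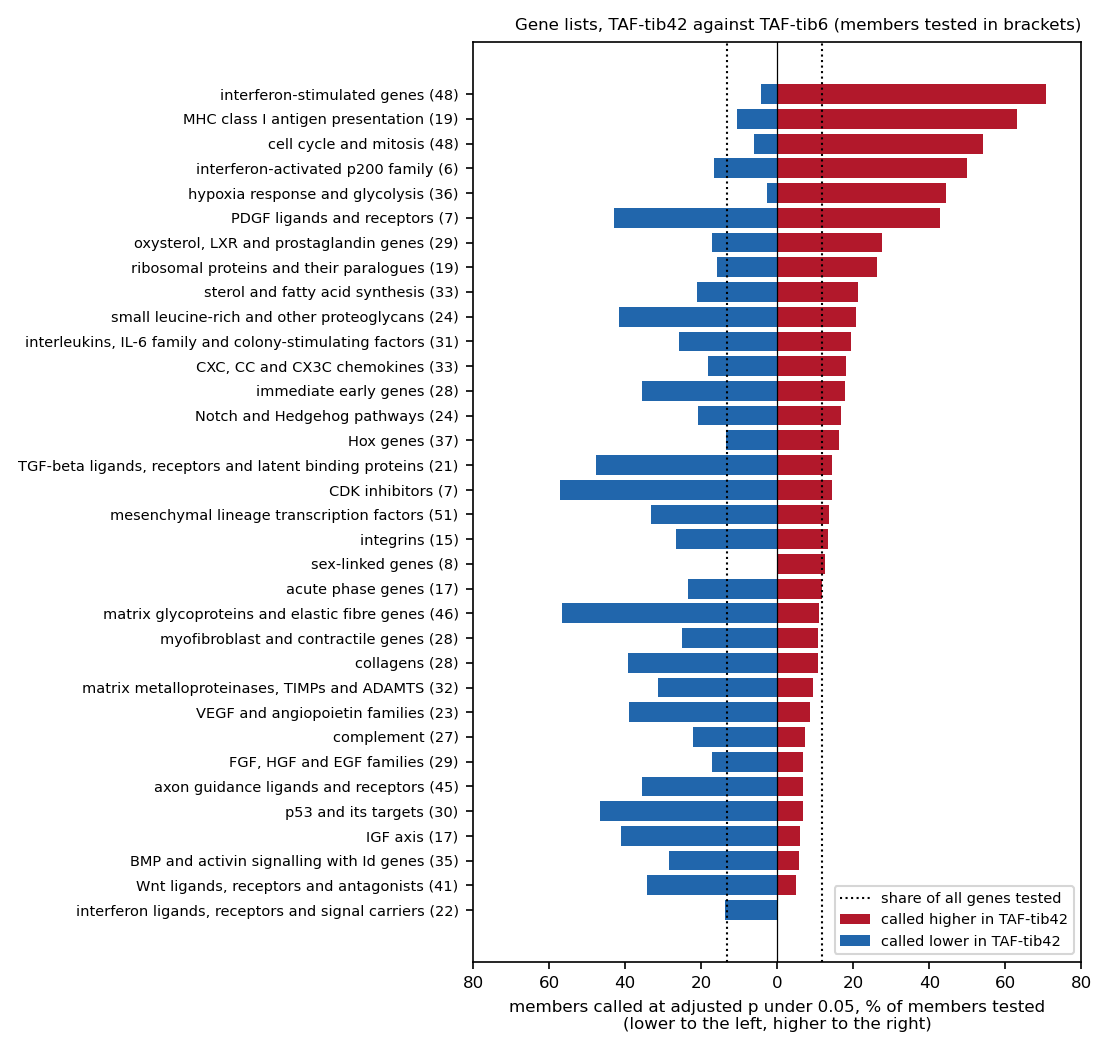
Share of the tested members of each list called lower (left) and higher (right) in TAF-tib42 against TAF-tib6 (x axis, percent; adjusted p under 0.05), with the number of members tested in brackets. Dotted lines mark the shares over all genes, 13.1% lower and 11.8% higher. Interferon-stimulated genes reach furthest to the right with 34 of 48, and matrix glycoproteins are among those furthest to the left with 26 of 46.

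Receptors and ligands of axon guidance, which also shape vessels, were lower in 16 of 45 and higher in 3, but 5 and 1 with the block. The shares of all genes were 13.1% and 11.8%, or 5.18% and 4.55% with the block. The receptor Epha4 had 0.31, 0.23 and 0.27 in TAF-tib42, against 2.37, 2.40 and 2.29 in TAF-tib6 (difference -2.09, SE 0.0463), with -0.61 by another probe, and the ligand Efnb2 fell by 1.18 (SE 0.0742), with -0.10 by another probe. Efna5 fell by 1.03 (SE 0.0576), with -0.05 by another probe. The probe read here is the brighter one in each case.

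Transcription factors of mesenchymal lineages were lower in 17 of 51 and higher in 7, or 13 and 4 with the block (all genes 13.1% and 11.8%, or 5.18% and 4.55%). Meox2, a homeobox factor of vessels and muscle, had 3.06, 3.01 and 2.67 in TAF-tib42, against 0.89, 0.98 and 0.90 in TAF-tib6 (difference 1.99, SE 0.086), with 1.28 by another probe. Foxf2, a forkhead factor of mesenchyme, rose by 1.69 (SE 0.0646). Sox9, the master factor of cartilage, had -0.33, -0.10 and -0.18 in TAF-tib42, against 1.71, 1.79 and 1.70 in TAF-tib6 (difference -1.93, SE 0.0652), with other probes from -1.89 to -0.02, and Prrx2 fell by 1.68 (SE 0.0537). Of 37 Hox genes, which keep the body position of a fibroblast, 6 were higher and 5 lower, near the 11.8% and 13.1% of all genes, or 2 and 4 with the block. Hoxa7 rose by 1.2 (SE 0.0466) and Hoxa10 by 0.71 (SE 0.0507), and Hoxb9 fell by 0.58 (SE 0.0592).

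Early targets of growth factor signalling went both ways, with 10 of 28 lower and 5 higher, and 6 and 4 with the block (all genes 13.1% and 11.8%, or 5.18% and 4.55%). Dusp6, a phosphatase that ERK signalling induces against itself, had -3.41, -3.41 and -3.64 in TAF-tib42, against -1.75, -1.71 and -1.72 in TAF-tib6 (difference -1.76, SE 0.0666). Egr1 fell by 1.14 (SE 0.115) and Fos by 0.96 (SE 0.117), whereas Nr4a2 rose by 0.58 (SE 0.0464). Hypoxia and glycolysis genes were higher in 16 of 36 and lower in 1, or 12 and 1 with the block (all genes 11.8% and 13.1%, or 4.55% and 5.18%). Ero1a, an oxidase of the endoplasmic reticulum induced by low oxygen, had 1.55, 1.54 and 1.44 in TAF-tib42, against 0.37, 0.46 and 0.43 in TAF-tib6 (difference 1.09, SE 0.062), Eno3 rose by 1.09 (SE 0.0849) and Hk2, which commits glucose to glycolysis, by 0.76 (SE 0.0496).

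Lipid signalling held opposite changes. Cyp7b1, which hydroxylates and clears oxysterols, had 0.69, 0.60 and 0.72 in TAF-tib42, against 3.36, 3.41 and 3.27 in TAF-tib6 (difference -2.68, SE 0.15). Ptgs1, the constitutive cyclooxygenase that begins prostaglandin synthesis, had -0.45, -0.33 and -0.48 in TAF-tib42, against -2.04, -2.14 and -2.17 in TAF-tib6 (difference 1.70, SE 0.0525). Further down that pathway Ptgis, the synthase of prostacyclin, fell by 1.55 (SE 0.0666) and Ptges, a synthase of prostaglandin E, by 0.64 (SE 0.0525). Over that list 8 of 29 were higher and 5 lower, but 1 and 4 with the block (all genes 11.8% and 13.1%, or 4.55% and 5.18%). Of 33 sterol and fatty acid genes 7 were higher and 7 lower, or 5 and 4 with the block.

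Among the 30 genes of highest and lowest difference were several outside these pathways. Mela, a melanoma antigen of retroviral origin, had 0.64, 0.69 and 0.64 in TAF-tib42, against -4.29, -4.25 and -4.19 in TAF-tib6, and was 29.8-fold higher (difference 4.90, SE 0.0769, adjusted p = 5.1e-18). Its level was 0.90 in TAF-tib48, 0.26 in TAF-el4 and -4.45 in NSF, so the 3 resistant sources lay on one side and the 2 sensitive on the other. Xlr, an X-linked gene of lymphocytes and germ cells, rose by 2.68 (SE 0.0601), with 2.19 by another probe, and was also near the reference in TAF-tib48 (-0.08) but not in TAF-el4 (-2.46). Rpl39l, the testis-type copy of a ribosomal protein gene, had -2.95, -3.17 and -3.14 in TAF-tib42, against 1.83, 1.81 and 1.81 in TAF-tib6, and was 29.9-fold lower (difference -4.90, SE 0.103, adjusted p = 3.1e-16). Another Rpl39l probe gave -1.37, and the parent gene Rpl39 -0.07 (SE 0.0448, adjusted p = 0.291). Rps4l had 0.11, 0.07 and 0.05 in TAF-tib42, against 3.66, 3.63 and 3.41 in TAF-tib6 (difference -3.49, SE 0.082), while its X-linked counterpart Rps4x differed by -0.00 (SE 0.124). Probes of such copies can share sequence with their parents, so part of the signal may belong to either. Prl2c5, a proliferin of the placenta that immortal fibroblasts also make, fell by 2.84 (SE 0.137, with -1.86 by another probe) and Prl2c3 by 2.45 (SE 0.137, with -1.40 and -1.0 by other probes), near-identical genes that the probes may not tell apart; both were far higher in TAF-tib48 and TAF-el4, at 3.85 and 4.17 for Prl2c5.

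Of the remaining genes among the 30, Rab7b, a GTPase of late endosomes, had 0.82, 0.74 and 0.86 in TAF-tib42, against -1.42, -1.45 and -1.55 in TAF-tib6, a rise of 2.28 (SE 0.0482), and was higher there than in any other source. Arhgdib, known from blood cells, rose by 1.75 (SE 0.0509). Tspan18, a tetraspanin, had -1.06, -1.09 and -1.02 in TAF-tib42, against 1.49, 1.52 and 1.44 in TAF-tib6, a fall of 2.54 (SE 0.0468).

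For each list that follows, the shares of all genes were 11.8% higher and 13.1% lower, or 4.55% and 5.18% with the block. Macrophage and myeloid markers were higher in 7 of 14 and lower in 2 (6 and 1 with the block). Their summed Cy5 signal was 4040 to 4191 in TAF-tib42 and 3632 to 3682 in TAF-tib6. Tyrobp, a signalling adaptor of myeloid cells, rose by 0.64 (SE 0.0813), and Lyz2, their lysozyme, fell by 0.68 (SE 0.088; no call on scaled log ratios, and 0.01 by another probe). The defining leukocyte gene Ptprc was near the floor in both sources and differed by 0.13 (adjusted p = 0.433), or by 0.58 with the block (adjusted p = 0.0164). The part of such cells in the interferon result was not tested. Adipocyte markers were lower in 4 of 10 and higher in none, with a summed signal of 5091 to 5618 in TAF-tib42 and 11774 to 12770 in TAF-tib6, and 1 was lower with the block. Fabp4 fell by 1.2 (SE 0.0604) and the lipase Lpl by 1.07 (SE 0.137; adjusted p = 0.0619 with the block), whereas Adipoq gave 86.6 to 93.9 in TAF-tib42 and 95.2 to 109 in TAF-tib6. Adipoq differed by -0.13 without a call (adjusted p = 0.155), and by -0.20 without TAF-tib42 replicate 1 (adjusted p = 0.047). Lymphocyte, keratinocyte, pericyte, muscle, melanocyte and Schwann cell lists had 0 to 2 members called in either direction. With the block 0 to 1 were higher and 0 to 2 lower, and none in the muscle, melanocyte and Schwann cell lists. Their summed signals, TAF-tib42 first, were lower for lymphocyte (15488 to 16037 against 19529 to 19629) and pericyte lists (10007 to 11928 against 15053 to 15359). They were higher for keratinocyte (4609 to 4872 against 3710 to 4012), muscle (18564 to 20659 against 15782 to 16740) and melanocyte lists (2315 to 2423 against 1814 to 2076). For Schwann cells they overlapped. The pericyte list holds Cnn1 (-1.24). Of 17 acute phase genes 2 were higher and 4 lower (0 and 1 with the block), and of 24 Notch and Hedgehog genes 4 and 5 (2 and 3). Of 19 ribosomal proteins and paralogues 5 were higher and 3 lower (3 and 3). A mixed list held 16 genes known as strain-variable, as retroviral or as tumour antigens, of which 4 were higher and 5 lower (3 and 3). Of 8 sex-linked genes 1 was higher, and none with the block.

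No chromosome was shifted as a whole. The median difference of a chromosome's genes lay between -0.0154 (chromosome 8) and 0.012 (chromosome 5) over 20 chromosomes.

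TAF-tib48 against NSF is another resistant source against another sensitive one, and it shares no array with TAF-tib42 and TAF-tib6. The NSF arrays all lie in a slide run that holds no TAF-tib48 array. Within these arrays, too, run and source cannot be told apart. Of the 179 genes at least 2-fold lower in TAF-tib42, 148 (82.7%) were called lower there, against 14.5% of all genes, and 18 (10.1%) were called higher. Of the 83 genes at least 2-fold higher in TAF-tib42, 29 (34.9%) were called higher there, against 11.7% of all genes, and 31 (37.3%) were called lower, against 14.5%. The genes lower in both by at least 2-fold were 79, which is 44.1% of the 179 and 30.5% of the 259 in TAF-tib48 against NSF. Those higher in both were 11, which is 13.3% of the 83 and 25.6% of 43. Cxcl12, Gas6, Rpl39l and Rps4l were on the shared lower side, at -2.91, -2.27, -3.69 and -2.54 in TAF-tib48 minus NSF, and Mela and Xlr on the shared higher side, at 5.35 and 3.04. Cdkn2b (0.05), Ifit1 (-0.24) and Isg15 (0.10) had no call there, and Ifi202b went the opposite way, at 2.76. The other kinase inhibitors among the 179 were called lower there, by less than 2-fold: Cdkn1c at -0.55, Cdkn2a at -0.47 and Cdkn1a at -0.21. In TAF-el4 against NSF 94 (52.5%) of the 179 were lower, against 8.57% of all genes, and 35 (19.6%) were higher, against 8.78%. Of the 83, 15 (18.1%) were higher and 48 (57.8%) lower there. TAF-tib48 against NSF and TAF-el4 against NSF share the NSF arrays. Replicates 1 and 2 of TAF-el4 lie in the slide run of NSF, and replicate 3 in that of TAF-tib42.

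**Figure D5:**
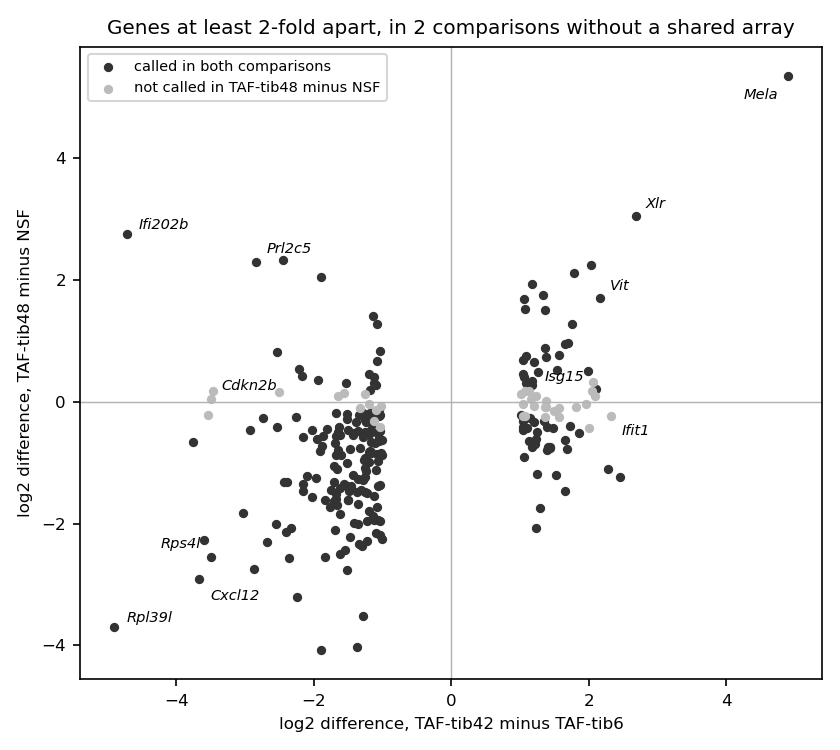
Log2 difference of TAF-tib42 minus TAF-tib6 (x axis) and of TAF-tib48 minus NSF (y axis), comparisons without a shared array, for the 262 genes called and at least 2-fold apart in the first. Dark points are called in both comparisons. Most points on the left lie below 0, whereas those on the right spread to both sides, with Mela and Xlr high in both and Isg15 and Ifit1 near 0 on the y axis.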

How the data were processed

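RNA of 5 fibroblast sources was hybridised in Cy5 against a reference RNA in Cy3 on 15 2-colour Agilent arrays, 3 per source, with no dye swap, per the labels. Spot intensity values were made by the authors with Agilent Feature Extraction, version 8.5.1.1 per the file headers and the submitters' processing notes and 9.5 per the labels' protocol. The deposited log10 ratios are the scanner software's own. The deposited value table holds log2 ratios that follow those ratios with a slope of 1 and medians of 0.0337 to 0.0511, and both were used only as alternatives. Here, mean intensity was background-corrected (normexp, offset 50), the log2 ratio was normalised within arrays by loess, control and outlier spots were left out, and spots of 1 probe were averaged. A gene was read from its probe with the highest mean intensity, and it was tested if well above background in Cy5 on all 3 arrays of at least 1 source. Of 41174 probes, 22207 were named by accession, 1441 by description, 75 by the files' gene name column through RefSeq (GRCm38.p6), and 17451 kept the name in the files. limma 3.58.1 (R 4.3.3) was fitted over all 15 arrays, with Benjamini-Hochberg adjustment over 31206 genes. Tables and figures were made with Python 3.11.15, pandas 2.3.3 and matplotlib 3.10.9. The alternatives changed the background correction, normalisation, starting values, filter, choice of probe, arrays in the fit and blocks, and left out each replicate. Median Cy5 intensity on the 6 arrays was 187.4 to 221.3 over a background of 52 to 53. Precision is limited by the number of arrays. Tested on simulated data for TAF-tib42 minus TAF-tib6 (30586 genes), the fit called 68% of the genes given a 1.2-fold change, 96% of those given 1.5-fold and 100% of those given 2-fold (50 genes each), besides 6 false calls. The simulated noise was independent between arrays, with the spread within sources and no effect of the slide run. Far fewer genes were changed than were called in the real data. The 6 false calls therefore do not gauge those of the real comparison, where run and source cannot be told apart. Named genes are the 15 highest and 15 lowest called differences with a gene symbol and groups that do not overlap, and from each list up to 6 of the largest called members, besides all members of the interferon-stimulated, p200 and CDK inhibitor lists where useful, the PDGF and VEGF families, defining markers, the neighbours of Cdkn2a and Cdkn2b, and ribosomal paralogues with their parent genes. Genes named beyond this rule, such as Ptges, Psmb10, Hoxa10 or members without a call, were chosen after their values were seen. The comparison, the 35 function lists and the 10 marker lists were chosen with earlier results of these data known. One gene that could have been named is omitted.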

Additional observations from a re-analysis of the deposited data

How the results depend on the processing

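The 30 genes of highest and lowest difference kept their direction and call under every alternative that tested them; a filter on all 6 arrays tested 28 of them. No alternative moved the median of all genes by more than 0.1. The count of called genes depended most on the slide run as a block (3036 genes, 1421 higher and 1615 lower). Leaving out arrays gave 4907 to 6893 called genes, 2194 to 3208 higher and 2713 to 3685 lower, with the lowest counts without replicate 1 of every source (4907, 2194 and 2713), where fewer arrays were fitted. At least 2-fold, these fits gave 81 to 87 genes higher and 174 to 182 lower. The Cy5 signal alone gave 5617 higher, and median centring gave 2410 higher and 3225 lower; the cause was not tested. The scanner's log ratios and the deposited value table each gave 157 genes at least 2-fold higher and 350 lower, from values without the offset of 50. With arrays left out, interferon-stimulated genes were higher in TAF-tib42 than in TAF-tib48 for 31 to 36, than in TAF-el4 for 34 to 38 and than in NSF for 31 to 34. The replicate numbers did not pair the samples: deviations of arrays with 1 number correlated at -0.002, -0.015 and -0.031. With a replicate block 7426 genes were called, 3545 higher and 3881 lower. No run held both sources, so a value within a run was not possible. Pdgfrb gave -0.00 on scaled log ratios, and on Cy5 alone the uncalled differences of Ifna4, Pecam1 and Zfp352 turned to 0.29, -0.52 and 0.22; the cause was not tested.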
